A study of Mus musculus with 2 samples.

Results

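Interferon-stimulated genes were followed in 2 lists of open chromatin intervals from cultured mouse OT-I CD8+ T cells. The set was a list of 39 named genes out of 20720 autosomal protein-coding genes, and the rule uses no measured value. Their intervals were those within 1 kb of a transcription start site of a listed gene, called promoter intervals, and those farther away whose nearest protein-coding start site within 100 kb belonged to a listed gene, called distal intervals. By this rule 251 of 127423 intervals of the vehicle list and 311 of 179414 intervals of the TAMo list belonged to the set.

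The study measured chromatin accessibility by ATAC-seq, in which a transposase cuts and tags open DNA. OT-I cells carry a transgenic T cell receptor for the ovalbumin peptide OVA257-264, and both cultures were given this peptide for 48 h. They differed in what was added: vehicle, or TAMos, the labels' name for CD11b+Ly6G-Ly6Chigh cells taken from the spleens of mice with LLC (Lewis lung carcinoma) tumors. The labels give the genotype as WT, and about 50000 viable sorted CD8+ T cells went into each library. The TAMos came from the spleen and not from the tumor itself, and the labels do not say how many animals gave the cells. There was 1 library per culture, so no difference below has a replicate check, no test between the cultures was possible, and every interval covers counting error only.

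Interferons signal through JAK kinases and STAT transcription factors. Type I interferon assembles a complex of STAT factors and IRF9 that binds the interferon-stimulated response element (ISRE), while interferon gamma, which activated CD8+ T cells make themselves, acts through STAT dimers at the gamma-activated site (GAS). The genes they switch on sense foreign nucleic acid, block viral replication, attach the ubiquitin-like protein ISG15 to other proteins, or disrupt the membranes around intracellular pathogens.

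The sequence that the pathway reads was found at many of these start sites. Promoter windows from RefSeq (assembly GRCm38.p6, the assembly called mm10; 250 bases before to 50 bases after a start site) were found for 30 of the 39 genes, and 9 were not in that table: Mx1, Usp18, Parp9, Parp14, Oas2, Dhx58, Zbp1, Iigp1 and Rtp4. The ISRE core was searched as GAAA-NN-GAAA (written without the dashes, N being any base) on both strands, with overlapping matches counted. The following stretches lie upstream of the start sites and are written 5′ to 3′ in the direction of the gene, with each ISRE core match in capitals (on the opposite strand it reads as its reverse complement). They were chosen to show the core in every role group that has a window with an upstream match, sensors excepted. Ifit3 and Cxcl10 are shown over the whole 250 bases before the start.
Isg15, chr4:156200855-156200916, minus strand: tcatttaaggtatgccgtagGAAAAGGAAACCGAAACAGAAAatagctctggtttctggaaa
Ifit1, chr19:34640765-34640833, plus strand: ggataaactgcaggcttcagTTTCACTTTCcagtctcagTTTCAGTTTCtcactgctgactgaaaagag
Oas1a, chr5:120907526-120907565, minus strand: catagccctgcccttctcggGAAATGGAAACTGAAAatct
Oas3, chr5:120777705-120777754, minus strand: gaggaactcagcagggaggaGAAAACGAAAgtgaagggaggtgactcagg
Rsad2, chr12:26456543-26456592, minus strand: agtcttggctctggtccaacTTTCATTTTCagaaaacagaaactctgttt
Bst2, chr8:71537567-71537622, minus strand: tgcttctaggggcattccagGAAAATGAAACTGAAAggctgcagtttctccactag
Gbp7, chr3:142530263-142530312, plus strand: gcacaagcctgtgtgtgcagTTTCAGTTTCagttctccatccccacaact
Irgm1, chr11:48871421-48871470, minus strand: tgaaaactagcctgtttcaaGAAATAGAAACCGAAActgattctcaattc
Ifit3, chr19:34583279-34583528, plus strand: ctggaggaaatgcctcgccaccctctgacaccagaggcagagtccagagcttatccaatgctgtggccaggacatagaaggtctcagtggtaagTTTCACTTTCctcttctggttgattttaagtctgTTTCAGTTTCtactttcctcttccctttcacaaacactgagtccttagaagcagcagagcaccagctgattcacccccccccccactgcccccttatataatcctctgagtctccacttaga
Cxcl10, chr5:92348890-92349139, minus strand: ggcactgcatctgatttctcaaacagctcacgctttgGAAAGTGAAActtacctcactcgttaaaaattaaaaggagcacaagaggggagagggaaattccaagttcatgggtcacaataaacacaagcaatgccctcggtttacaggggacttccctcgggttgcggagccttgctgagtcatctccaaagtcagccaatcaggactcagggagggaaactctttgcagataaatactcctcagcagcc

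An ISRE core was present in the window of 18 of the 30 genes (60%), against 634 of 15680 genes with a window (4.04%). These 18 were Bst2, Cxcl10, Ddx58, Eif2ak2, Gbp2, Gbp3, Gbp5, Gbp7, Ifih1, Ifit1, Ifit3, Igtp, Irgm1, Irgm2, Isg15, Oas1a, Oas3 and Rsad2. The Isg15 window held 3 overlapping matches, with first bases at 66, 72 and 78 bases before the start. A longer form, in which the same letters are followed directly by CT, was present for 11 of the 30 genes (36.7%) against 0.395% of all genes. The GAS letters TTCNNNGAA were present for 11 of the 30 (36.7%) against 9.05%, and the AP-1 letters TGANTCA for 8 of the 30 (26.7%) against 8.20%. The windows of the set also held fewer CpG dinucleotides, with a median of 7 against 15 over all genes, and a median GC content of 52.7% against 57.2%. A match to these letters is a description and not evidence that a factor was bound.

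Nearly all of these genes had an ISRE match in open chromatin in both cultures. A match fell inside a vehicle interval for 17 of the 18 genes and inside a TAMo interval for 18 of the 18 (Gbp3 was the exception in vehicle), against 43.2% and 47.6% of all 634 genes with a match. The distance from a gene's closest match to the nearest summit, the position of highest coverage within an interval, had a median of 57 bp in vehicle and 46 bp in TAMo. Over all 634 genes with a match, which include genes without an open promoter, the medians were 263 bp and 205 bp. At Ifit1, whose product binds foreign RNA, the nearest vehicle summit was 2 bp and the nearest TAMo summit 15 bp from the centre of a match. At Oas1a the vehicle summit was 101 bp and the TAMo summit 52 bp away, both in weak intervals that are described below, and at Bst2, Cxcl10 and Gbp3 the summits of both libraries were over 100 bp away. The plot of matches and summits shows these positions gene by gene.

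**Figure D1:**
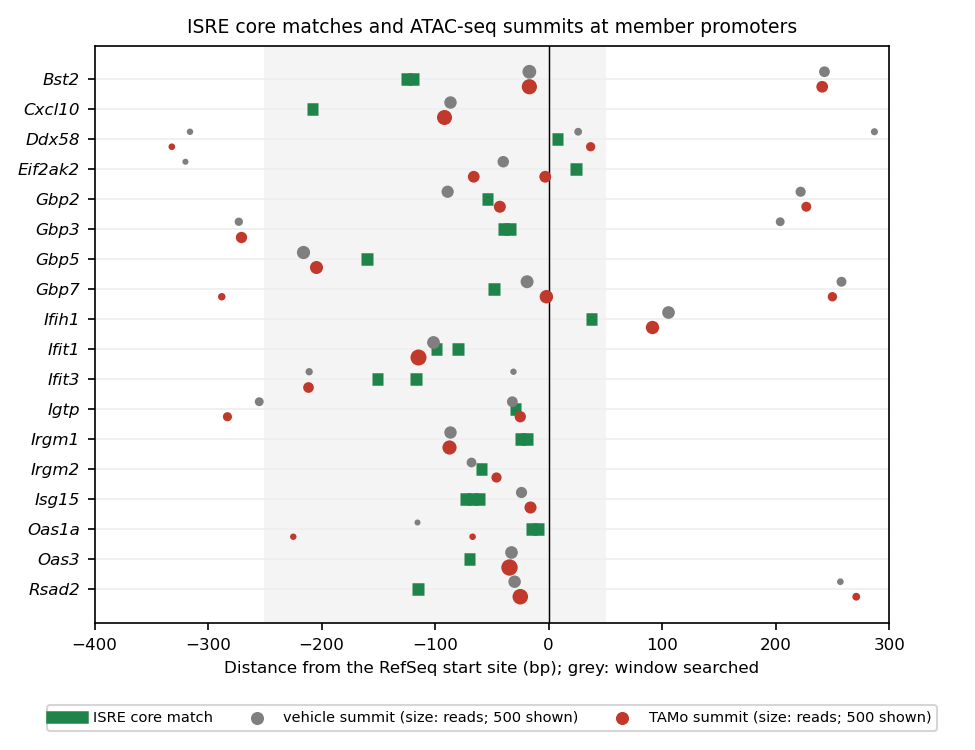
ISRE core matches (green bars) and ATAC-seq summits of the vehicle library (grey points) and the TAMo library (red points) at the 18 genes with a match, plotted by distance from the RefSeq start site in bp; point size gives the reads at the summit. In most genes the summits of both libraries sit beside each other and near the matches, and at Gbp3 the nearest summits are 232 bp and 230 bp away.

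Nearly all promoters of the set were already open in the culture without TAMos. Of the 39 genes, 37 had a promoter interval in both lists (over all protein-coding genes, 65.3% did), 2 had one in the TAMo list only (background 3.4%) and 0 had one in the vehicle list only (background 0.854%). The 2 genes were Oas2, an oligoadenylate synthetase, with 41 reads at its TAMo summit, and Ifi44, an interferon-induced antiviral protein, with 28 reads. Their −log10 q values in the authors' list were 7.38 and 9.48, so both were weak intervals. Among the other 37 genes, the median coverage at the strongest shared promoter summit was 441 reads in vehicle (range 15 to 731) and 525 reads in TAMo (range 58 to 972), beside 427 and 530 reads over all genes.

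Coverage was compared after division by each library's background, which was 4.71 reads for vehicle and 5.80 for TAMo. The log2 ratio of TAMo over vehicle had a median of 0.11 over the 37 genes, with quartiles of -0.13 and 0.43, beside a median of 0.04 and quartiles of -0.13 and 0.23 over the 13505 genes with a shared promoter region. Ratios past 1.5-fold were counted as higher or lower. By this count 5 of the 37 promoters were higher in the TAMo library, where 9.82% of all genes were, and 0 were lower, where 3.47% of all genes were. The share of 13.5% higher is near the background for so few genes. The counting interval lay above 0 for 11 genes (background 27%) and below 0 for 3 (background 17.4%), and held 0 for 23.

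**Figure D2:**
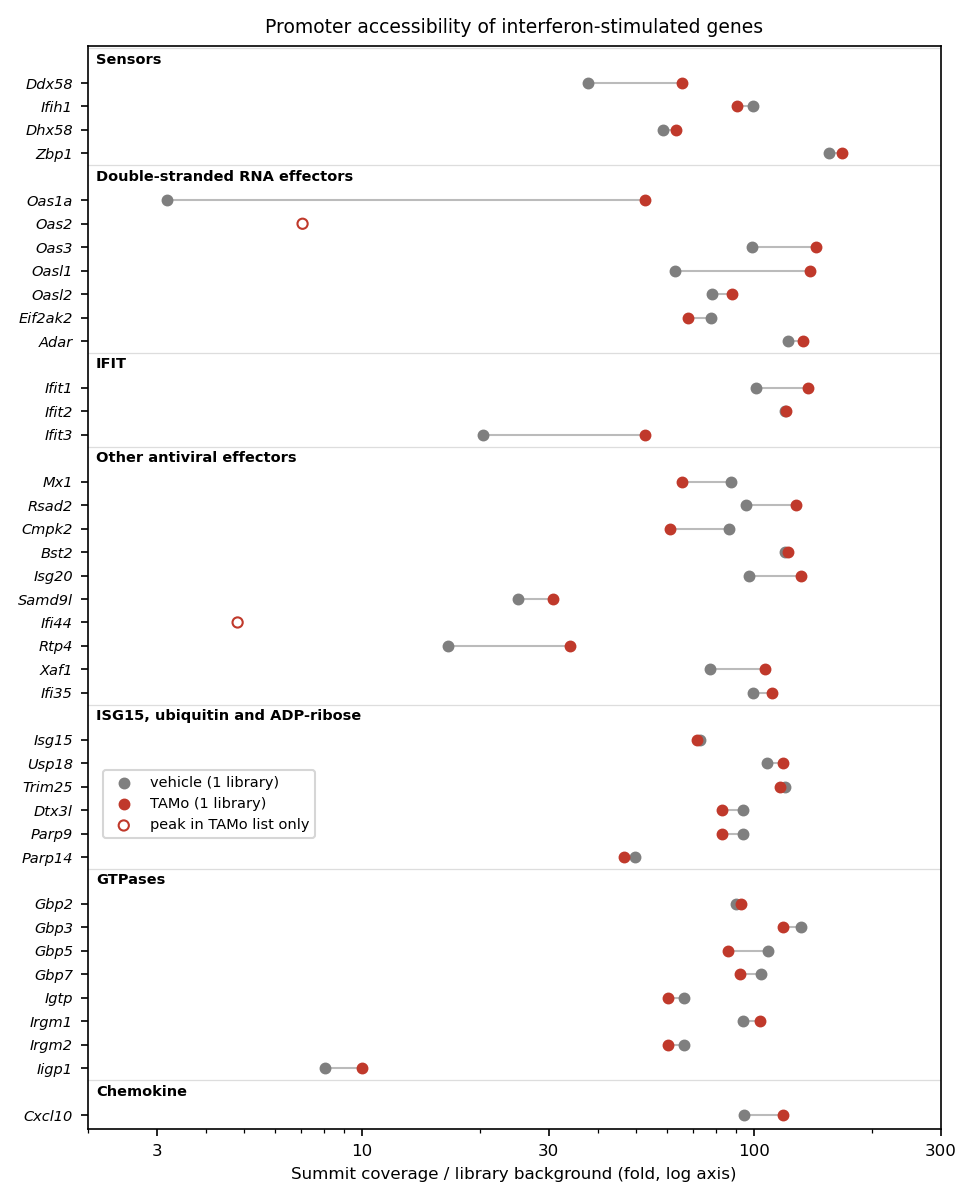
Promoter accessibility of each gene as summit coverage divided by library background (fold, log axis), for the vehicle library (grey) and the TAMo library (red), ordered by role; open red circles mark the 2 genes with an interval in the TAMo list only. Most genes lie between 30-fold and 200-fold in both libraries, while Oas1a, Iigp1, Rtp4, Ifit3 and Samd9l lie below 30-fold in vehicle.

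Among the sensors, only Ddx58 differed past 1.5-fold. Ddx58 encodes RIG-I, which detects viral RNA in the cytoplasm. Its strongest shared summit had 178 reads in vehicle and 380 reads in TAMo, a log2 ratio of 0.79 (interval 0.53 to 1.06). This summit lay about 660 bp inside the gene, and the summits at the start itself had 120 and 208 reads, a log2 ratio of 0.49 (0.16 to 0.83). The other sensors lay within 1.5-fold. Zbp1, which senses Z-form nucleic acid, had the highest coverage of the set, 731 reads in vehicle and 972 in TAMo (log2 0.11). Ifih1, which encodes the RNA sensor MDA5, had 468 and 525 reads (log2 -0.13), and Dhx58, which encodes the regulator LGP2, had 277 and 368 (log2 0.11).

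The enzymes that respond to double-stranded RNA held the widest range. Oas1a, an oligoadenylate synthetase that activates RNase L, had a shared interval on chromosome 5 at chr5:120908027-120908499, about 811 bp upstream of its start. Coverage at its summit was 15 reads in vehicle and 307 in TAMo, a log2 ratio of 4.05 (interval 3.31 to 4.91). That was the highest promoter ratio of the 13505 genes with a shared promoter region. It rests on a weak vehicle summit, with a −log10 q of 2.73 and fewer reads than that list's 10th percentile of 24. At the Oas1a start, where the ISRE matches lie, coverage was low in both libraries, 36 and 59 reads, with a log2 ratio of 0.41 whose interval held 0 (-0.21 to 1.05). So the start and the upstream interval of Oas1a gave very different ratios.

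Oasl1, a member of the same family that lacks synthetase activity, was higher in TAMo both upstream and at its start. The upstream region, whose summits lie over 1 kb from the start although the joined region reaches into the window, had 296 reads in vehicle and 806 in TAMo (log2 1.14, interval 0.95 to 1.34). The start had 155 and 443 reads (log2 1.21, interval 0.95 to 1.49). Oas3, which makes long oligoadenylates, had 467 and 837 reads, and its log2 ratio of 0.54 (0.38 to 0.71) stayed just under 1.5-fold. Oasl2 had 369 and 509 reads (log2 0.16). Adar, the RNA-editing deaminase, had 575 and 773 reads (log2 0.13) at a start inside the gene. At its first start it had 212 and 244 reads (log2 -0.10). Eif2ak2, which encodes the translation-blocking kinase PKR, had 367 and 393 reads (log2 -0.20, interval -0.41 to 0.01). Members of this family lie side by side in similar copies, and the sources used here do not give how reads with more than 1 match were treated.

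The 3 IFIT genes, neighbours on chromosome 19, did not move alike. Ifit3 had 96 reads in vehicle and 306 in TAMo at a summit about 213 bp before its start, a log2 ratio of 1.37 (interval 1.04 to 1.72). A second pair of summits, about 551 bp before the start, had 52 and 249 reads (log2 1.96, interval 1.52 to 2.42). Both ISRE cores of the Ifit3 stretch printed above lie between the start and these summits. Ifit1 had 478 and 797 reads (log2 0.44, interval 0.27 to 0.60), in a region shared with the start of the neighbouring gene Ifit1bl2. Ifit2 had 565 and 700 reads (log2 0.01, interval -0.15 to 0.17), a value at the background scaling.

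The remaining antiviral effectors went both ways. Rtp4, a transmembrane receptor-transporter protein induced by interferon, had 78 reads in vehicle and 197 in TAMo (log2 1.04, interval 0.65 to 1.43), the only promoter of this group past 1.5-fold. Its summits in the libraries lay 117 bp apart, so it had no ratio when only summits within 100 bp were paired, and the number of higher promoters was then 4. Xaf1, a proapoptotic factor, had 365 and 619 reads (log2 0.46), Isg20, an exonuclease, 457 and 767 (log2 0.45), and Rsad2, which encodes viperin, 450 and 745 (log2 0.43). The intervals of these 3 genes lay above 0. Cmpk2, a mitochondrial nucleotide kinase that neighbours Rsad2, had 406 and 354 reads, a log2 ratio of -0.50 (-0.71 to -0.29). Mx1, a dynamin-like GTPase, had 413 and 381 reads, a log2 ratio of -0.42 (-0.62 to -0.21). These were the lowest ratios of the set, and neither reached 1.5-fold. Bst2, which encodes tetherin, had 564 and 710 reads (log2 0.03), Ifi35 had 470 and 647 (log2 0.16) and Samd9l 118 and 178 (log2 0.29), with 0 inside each interval.

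Around the 2 annotated start sites of Mx1 the values ran in opposite directions. The outer start gave the log2 ratio of -0.42 above. The other summits lay inside the gene, on either side of its second start. Those about 758 bp downstream of the second start had 110 reads in vehicle and 411 in TAMo (log2 1.60, interval 1.29 to 1.92). Those about 673 bp upstream of the second start had 209 and 346 reads (log2 0.43, interval 0.18 to 0.68). Isg20 likewise had a TAMo interval with 361 reads at 570 bp inside the gene that overlapped no vehicle interval.

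The ISG15 system showed no promoter past 1.5-fold. Isg15 itself, with the 3 overlapping ISRE cores before its start, had 344 reads in vehicle and 416 in TAMo (log2 -0.03, interval -0.24 to 0.18). A TAMo interval with 192 reads, 636 bp upstream of the Isg15 start, overlapped no vehicle interval. Usp18, which removes ISG15 and dampens type I interferon signalling, had 509 and 689 reads (log2 0.14, interval -0.03 to 0.30). Trim25, a ubiquitin and ISG15 ligase, had 565 and 678 reads (log2 -0.04). Parp9 and Dtx3l, which form a complex and share a divergent promoter region, had 441 and 481 reads at the shared summit (log2 -0.18), and Parp14, an ADP-ribosyltransferase, had 235 and 271 (log2 -0.09). Over the 6 genes of this group the median was -0.07.

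The interferon-inducible GTPases, which attack the membranes around intracellular pathogens, had the lowest median of the groups with more than 1 gene, -0.13 over 8 genes. Gbp5 had 513 reads in vehicle and 497 in TAMo (log2 -0.35, interval -0.53 to -0.17), the only member of the group whose interval did not hold 0. Gbp7 had 492 and 535 reads (log2 -0.18) and Gbp3 622 and 689 (log2 -0.15). Gbp2 had 425 and 538 reads at its strongest shared region (log2 0.04), about 787 bp upstream, and 427 and 409 at its start (log2 -0.36, interval -0.56 to -0.16). Thus the start-site values of Gbp2 and Gbp5 were alike in sign and size. Igtp and an annotated start of Irgm2 share a region with 312 and 351 reads (log2 -0.13), which was counted for both genes. By the Irgm2 start whose window holds the ISRE core, summits had 240 and 269 reads (log2 -0.14, interval -0.39 to 0.12). Irgm1 had 441 and 603 reads (log2 0.15), and Iigp1 was weak in both libraries with 38 and 58 (log2 0.31, interval -0.31 to 0.94). These genes belong to families of similar copies, so the caution on reads with several matches holds here too.

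Cxcl10, the chemokine that attracts CXCR3-bearing T cells, had 444 reads in vehicle and 690 in TAMo, a log2 ratio of 0.34 (interval 0.16 to 0.51). Its interval lay above 0 without reaching 1.5-fold. The plot of promoter ratios sets all 37 genes side by side.

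**Figure D3:**
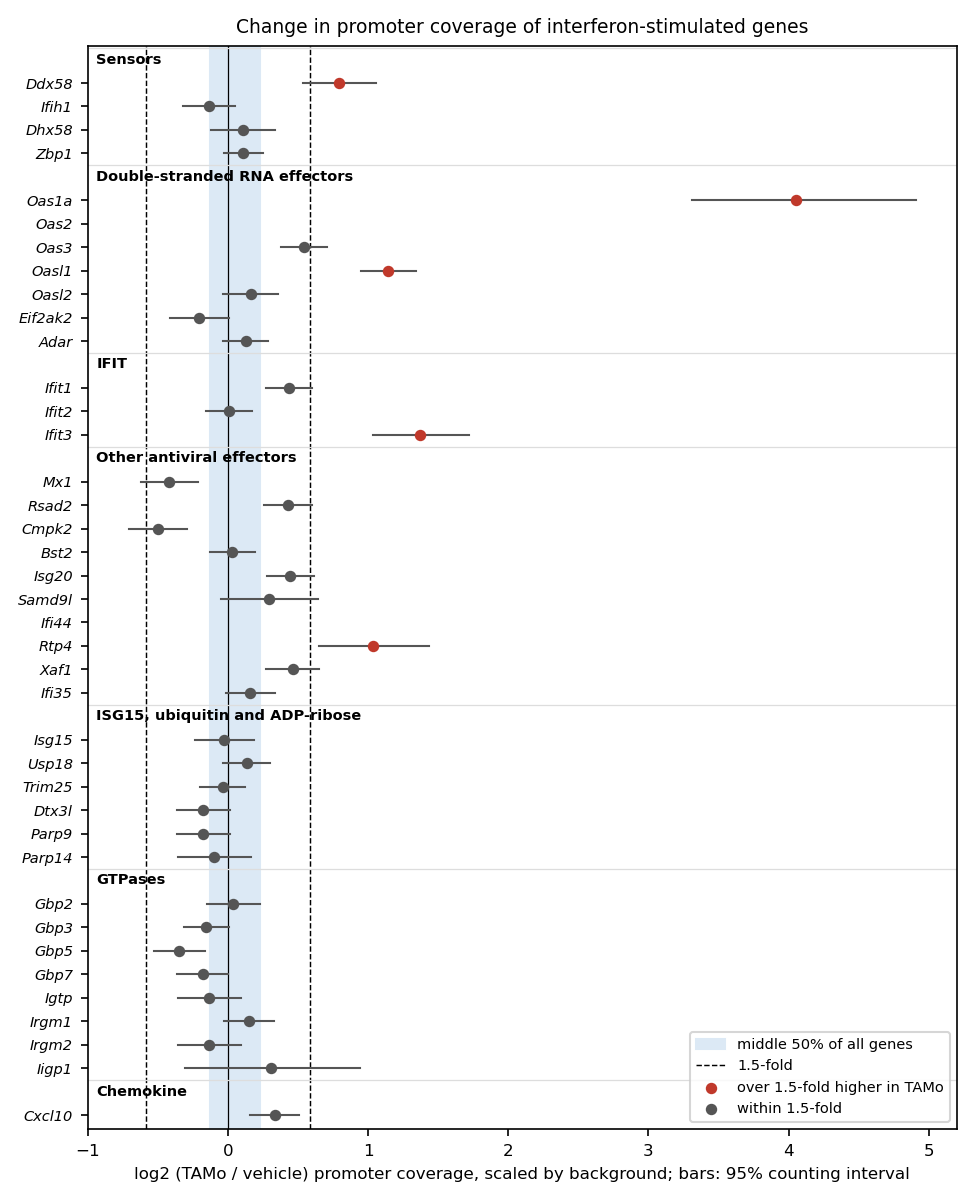
Log2 ratio of TAMo over vehicle promoter coverage, scaled by background, for the 37 genes with a shared promoter region, ordered by role; bars are 95% counting intervals, the blue band holds the middle 50% of all 13505 genes and dashed lines mark 1.5-fold. Ddx58, Oas1a, Oasl1, Ifit3 and Rtp4 (red) lie past 1.5-fold, and the GTPases and the ISG15 group cluster about 0.

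Several promoters held more than 1 summit that could be matched between the libraries within 100 bp, 96 pairs in all, and these were divided by position. Summits nearer to the start of a gene outside the set, as at Ifit1, were left out of this count. Within 250 bp of a start site, 47 pairs had a median log2 ratio of 0.03, the same as the 0.03 of 18346 pairs over all genes. From 250 bp to 1 kb, 49 pairs had a median of 0.22, beside 0.10 for 17141 pairs over all genes. Past 1.5-fold, 4 of the 47 near pairs were higher (background 7.72%) and 1 was lower (background 4%), against 8 of the 49 outer pairs higher (background 14.3%) and 0 lower (background 5.24%). Taking for each gene the summits nearest a start site in place of its strongest region (an alternative added once the values were known) left 3 genes higher (background 9.8%) and 1 lower (background 5.01%). Several pairs come from the same gene, and the difference between near and outer pairs in the set was not tested.

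The 8 outer pairs belonged to Oas1a, Ifit3, Mx1, Gbp3, Ddx58 and Rsad2, with Oas1a and Ddx58 giving 2 each. At Gbp3, summits about 280 bp before a start had 150 reads in vehicle and 355 in TAMo (log2 0.94, interval 0.66 to 1.23), while its strongest promoter summit, 168 bp inside a start, gave -0.15. The near pairs past 1.5-fold lay at Ifit3, Oasl1 (2 pairs) and Xaf1, and the lower one at Iigp1 rested on 40 and 32 reads with an interval that held 0 (-1.34 to 0.08).

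Away from the start sites the set gained intervals in the TAMo list, as the whole list did. There were 177 distal intervals in vehicle and 231 in TAMo, a ratio of 1.31 beside 1.43 over all distal intervals. Of the vehicle intervals, 22 (12.4%, 95% Wilson interval 8.35 to 18.1) overlapped no TAMo interval, beside a background of 13.8%. Of the TAMo intervals, 81 (35.1%, interval 29.2 to 41.4) overlapped no vehicle interval, beside a background of 41.6%. By gene, 22 had more distal intervals in TAMo, 8 had fewer and 9 had equal numbers, among them Isg15 and Eif2ak2 with none in either list.

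Gains were uneven between genes. Adar had 12 distal intervals in vehicle and 18 in TAMo, Samd9l 9 and 16, Zbp1 8 and 13, Mx1 7 and 12, and Isg20 6 and 11, while Irgm2 had 12 in both. Rtp4 went from 3 to 10, and 9 of its 10 TAMo intervals overlapped no vehicle interval. The 9 included weak ones, such as intervals with 18 and 21 reads, and their highest coverage was 87 reads. Usp18 and Trim25 had fewer in TAMo than in vehicle, 8 against 9 and 7 against 9.

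**Figure D4:**
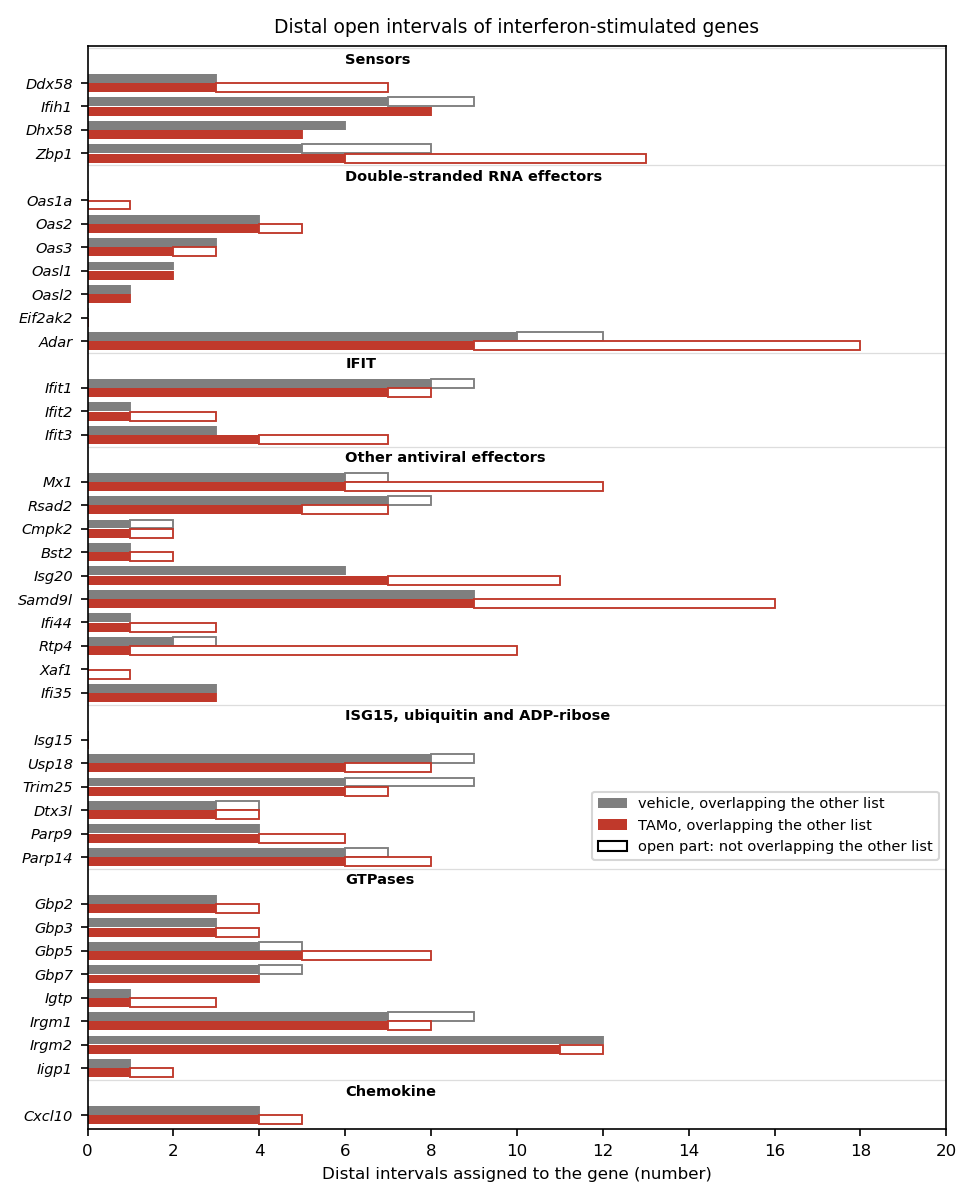
Number of distal intervals assigned to each gene in the vehicle list (grey) and the TAMo list (red), ordered by role; the open end of a bar counts intervals that overlap none of the other list. The longest open red parts are those of Adar and Rtp4 with 9 intervals each and of Samd9l and Zbp1 with 7 each, and Irgm2 has 12 intervals in both lists.

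Only 3 distal intervals were both among the 50000 strongest of their list and without overlap in the other list, all in TAMo (background 1.66%), with 0 in vehicle (background 0.455%). All 3 lay inside the genes they were assigned to. The Isg20 interval, chr7:78918481-78918984, lies 4458 bp from the start and had 479 reads. The Usp18 interval, chr6:121253333-121253681, lies 7614 bp from the start and had 158 reads. The Mx1 interval, chr16:97451857-97452218, lies 8706 bp from the nearest Mx1 start, the second one, and had 117 reads. The strongest promoter region of each of these genes differed by less than 1.5-fold, although Mx1 and Isg20 had the other promoter sites described above, and the Mx1 value became -0.69 when centred on all shared regions.

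Coverage was compared at the 145 distal regions with an interval in both lists. The median log2 ratio was 0.31 (quartiles -0.04 and 1.03), and 55 regions (37.9%) were over 1.5-fold higher and 12 (8.28%) over 1.5-fold lower in TAMo. Over all 74259 shared distal regions the median was 0.37, with 39.8% higher and 9.04% lower, so the set did not stand apart from other genes by these counts.

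The highest distal ratios were at Trim25, Rsad2 and Adar. A region 24990 bp from the Trim25 start, chr11:89024067-89024648, had 67 reads in vehicle and 797 in TAMo, a log2 ratio of 3.27 (interval 2.91 to 3.65), while the Trim25 promoter gave -0.04. A region 14448 bp from the Rsad2 start, chr12:26441789-26442189, had 41 and 466 reads (log2 3.21, interval 2.74 to 3.70). At Rsad2, 4 of 5 shared distal regions were higher, with a median of 1.66 beside the promoter's 0.43. These regions were assigned by distance alone, and no contact with the gene was measured.

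Adar had the most distal regions higher in TAMo, 8 of its 9. The highest of them, 24082 bp from its nearest start, had 37 reads in vehicle and 304 in TAMo (log2 2.74, interval 2.24 to 3.27). The next regions, 49325 bp and 74024 bp away, gave 2.64 each, from 20 and 154 reads and from 58 and 446 reads. The strongest Adar promoter region, at a start inside the gene, had a ratio of 0.13. At the first start of the gene, 212 and 244 reads gave -0.10 (interval -0.37 to 0.17). So most distal values of Adar were far from those at both starts.

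Among the other genes, an Mx1 region 5313 bp from the start had 56 and 310 reads (log2 2.17, interval 1.75 to 2.61). An Ifit3 region 5968 bp away had 28 and 143 reads (log2 2.05), and a Gbp2 region 8591 bp away had 53 and 252 reads (log2 1.95). The Oas2 region 3173 bp away had 47 and 194 reads (log2 1.75, interval 1.28 to 2.24), at a gene whose promoter had an interval in the TAMo list only. An Isg20 region 11174 bp away had 115 and 485 reads (log2 1.78, interval 1.48 to 2.08). The highest distal ratio of a sensor gene was 1.20, at Zbp1, and that of the chemokine gene Cxcl10 was 1.25.

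The 12 lower regions were spread over 10 genes, with Gbp5 and Parp9 holding 2 each. The lowest was a Gbp7 region, chr3:142540947-142541336, with 114 reads in vehicle and 50 in TAMo (log2 -1.49, interval -2.00 to -0.998). An Irgm2 region 15648 bp from its start had 83 and 43 reads (log2 -1.25). The one with most reads was an Irgm1 region, chr11:48856200-48857229, with 602 and 409 reads (log2 -0.86, interval -1.04 to -0.67). At Irgm1 another region, 2116 bp from the start, went the other way with 139 and 399 reads (log2 1.22). Of the 12, 6 were assigned to GTPase genes, which held 34 of the 145 shared distal regions and had 9 that were higher. Over all shared distal regions 9.04% were lower and 39.8% higher, and the difference of the GTPase group was not tested.

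**Figure D5:**
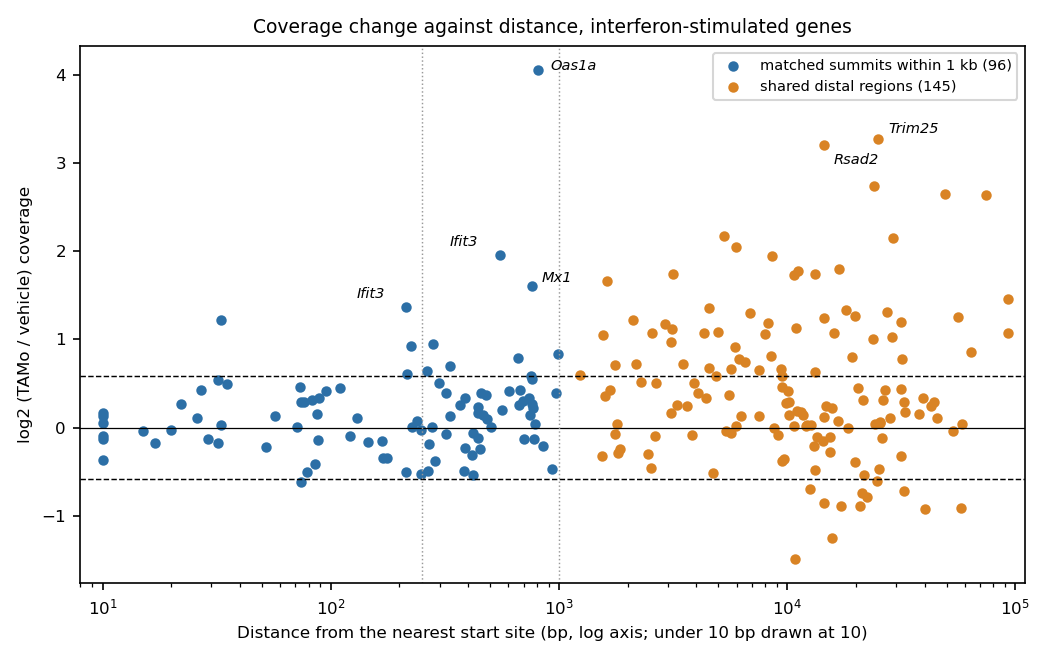
Log2 ratio of TAMo over vehicle coverage against distance from the nearest start site (bp, log axis) for 96 matched summit pairs within 1 kb (blue) and 145 shared distal regions (orange) of the set; dashed lines mark 1.5-fold and dotted lines 250 bp and 1 kb. Points near the start sites cluster about 0, and the spread in both directions is wider beyond 1 kb. This spread includes counting error, which is larger where reads are few. The highest point is the Oas1a pair at 811 bp, inside 1 kb.

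The genes that carry the interferon signal itself were open in both cultures. All 14 listed receptor, kinase, transcription factor and feedback genes had a promoter interval in both lists, with a median log2 ratio of 0.00. Past 1.5-fold, 0 were higher (background 9.82%) and 1 was lower (background 3.47%), and the counting interval lay above 0 for 2 genes, below 0 for 4 and held 0 for 8. The lower one was Ifngr2, which encodes a chain of the interferon gamma receptor, with 454 reads in vehicle and 352 in TAMo (log2 -0.67, interval -0.87 to -0.46). Stat2 had 787 and 1045 reads (log2 0.11), Irf9 643 and 809 (log2 0.03) and Irf7, a transcription factor that amplifies interferon production, 445 and 537 (log2 -0.03), each with 0 inside its interval. Jak2, a kinase of the interferon gamma receptor, had 545 and 856 reads (log2 0.35, interval 0.19 to 0.51), and Tyk2, a kinase of the type I interferon receptor, 786 and 762 (log2 -0.35, interval -0.49 to -0.20); both were chosen after their values were seen, as the widest departures after Ifngr2.

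The median promoter ratio was no higher for genes with an ISRE core in their window than for those without. The 18 with a match had a median of 0.04 and 3 of them (Ddx58, Ifit3 and Oas1a) were past 1.5-fold (background 9.82%). Of the 12 without a match, 11 had a ratio, with a median of 0.16 and 1 past 1.5-fold (Oasl1). The 9 genes without a window had 8 ratios, with a median of 0.11 and 1 past 1.5-fold. These ratios come from each gene's strongest shared region, which need not hold the match. At the summits nearest a start, Oas1a gave 0.41, Ddx58 0.49 and Gbp2 -0.36.

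The sorted cells were checked by marker promoters. All 10 T cell markers, including Cd3e and Cd8a, had intervals in both lists, with summed coverage of 1129 times background in vehicle and 1132 times in TAMo. Single T cell markers went both ways, with log2 ratios from -0.76 to 0.45. Past 1.5-fold, 0 were higher (background 9.82%) and 1 was lower (background 3.47%). The counting interval lay above 0 for 3 markers (background 27%), below 0 for 4 (background 17.4%) and held 0 for 3. Of 10 monocyte and macrophage markers, 3 were in both lists, 3 in TAMo only (Csf1r with 100 reads, Itgam with 118 and Adgre1 with 31), 1 in vehicle only (Fcgr1 with 18) and 3 in neither, namely Lyz2, Ccr2 and Ly6c2. Over the markers with an interval in the list concerned, the summed level was 161 times background in vehicle (single markers 3.82 to 108) and 223 times in TAMo (5.34 to 114), and over the 3 shared markers alone it was 157 and 180 times. The 3 shared monocyte and macrophage markers had log2 ratios from 0.07 (Cd68) to 0.89, with a median of 0.38. Past 1.5-fold, 1 was higher (background 9.82%) and 0 were lower (background 3.47%). Of 6 B cell markers, 3 were in both lists, 1 in TAMo only and 2 in neither, among them Cd79a. Their summed levels were 20.2 in vehicle and 38.97 in TAMo, or 20.2 and 33.8 over the shared ones. The 3 shared B cell markers had log2 ratios from -0.18 (Cd79b) to 1.47, with a median of 1.02. Of these, 2 were past 1.5-fold higher (background 9.82%) and 0 lower (background 3.47%). Single B cell markers were weak, 5.10 to 9.55 times background in vehicle and 5.17 to 14.1 times in TAMo. A marker without an interval counts as 0 in the summed levels, so the sums also move with the length of the lists. The part of other cell types in the intervals of the set found in TAMo alone, including the weak ones of Ifi44 and Oas2, was not tested.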

How the data were processed

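The 39 genes were listed by name, and they and all other lists were chosen with earlier results of these data known. Per the submitters' processing notes, Trimmomatic 0.36, Bowtie2 and MACS2 were used with build mm10. The sources used here do not give settings, duplicate removal or read shifting. The authors deposited 1 list of intervals per library, called separately, on chromosomes 1 to 19. Per the deposited values each row holds a score, a fold enrichment (a ratio over local background), a −log10 p and a −log10 q, all set by the authors' peak caller. The lists had 163215 rows for vehicle and 225656 for TAMo, and rows with the same interval were joined.

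Summit coverage was recovered here from the authors' fold, (coverage + 1)/(background + 1), and Poisson −log10 p. It came out as whole reads within 1% of a step for 99.98% of rows in each list (30 and 48 rows left out). The most frequent background, 4.71 and 5.80 reads, was taken as depth (ratio 1.23). The 10th percentile of summit coverage was 24 and 27 reads, so weak intervals depend on the calling threshold. Overlapping intervals (at least 1 bp) were joined into regions. Each gene's promoter was its strongest shared region within 1 kb, with the strongest summit of each library. Ratios carry 95% exact binomial (Clopper-Pearson) intervals. Reads are not independent molecules, so these cover counting error only. Shares carry Wilson intervals. Starts came from GENCODE M21, basic set, protein-coding transcripts. The recovery and ratio steps were tested on simulated data.

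Named in full were genes with a promoter interval in 1 list, the 6 highest and 6 lowest promoter ratios, strong distal intervals in 1 list, the 6 genes with most distal intervals, genes with an ISRE core, Isg15, Ifit1, Ifit3, Mx1, Usp18, Cxcl10, Gbp2, Irgm1 and Ddx58, and pathway genes past 1.5-fold with Stat2, Irf7 and Irf9; some values of the pathway and marker lists are not reported here. Rtp4 distal intervals, the matched summit pairs and the distal regions were picked after their values were seen. Python 3.11.15, pandas 2.3.3 and scipy 1.17.1 were used.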

Additional observations from a re-analysis of the deposited data

How the results depend on the processing

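No paired analysis was possible because each culture has 1 library. Peak presence depended on list length: with intervals of −log10 q of 10 or more, or with the TAMo list shortened to the vehicle number, 0 genes had a promoter interval in TAMo only and 2 in neither list. Centred on all shared regions, whose median log2 ratio was 0.28, the promoter median became -0.17. In that setting 4 genes were higher and 3 lower past 1.5-fold. Centred on shared promoter regions the median was 0.057. With the summits nearest a start site, a choice made after seeing the data, the promoter median was 0.032 with 3 genes higher (background 9.8%) and 1 lower (background 5.01%). In that setting Oas1a fell to 0.41, Ddx58 to 0.49, Adar to -0.10, Gbp2 to -0.36 and Iigp1 to -0.62. Ifit3 gave 2.26 from summits that do not match in position. Of the distal intervals not shared, the vehicle share was 19.2% and the TAMo share 24.6% with the TAMo list shortened, and 27.1% and 44.2% with reciprocal overlap of 50%. Centred on shared distal regions the distal median was -0.058, with 39 regions higher and 26 lower. At 2-fold, 38 distal regions were higher and 2 lower. Centring shifts all genes or regions by the same amount, and no share over all of them stands beside these centred and 2-fold counts. The longer ISRE left 11 genes with a match. Of the single promoter ratios, 32 of 37 moved beyond their interval when centred on all shared regions, 3 with a window of 2.5 kb and 6 with the summits nearest a start. With 1 library per culture, depth limits only the counting error.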
